A study of Homo sapiens with 3 samples.

Results

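The histone cluster genes were the 70 genes whose symbol in the deposited table began with HIST1H, HIST2H, HIST3H or HIST4H, of 19225 gene symbols in all. The choice used the name alone and no measured value. The members were 6 H1, 17 H2A, 18 H2B, 14 H3 and 15 H4 genes, with 55 on chromosome 6, 14 on chromosome 1 and 1 on chromosome 12. The 3 RNA-seq libraries came from the human bladder cancer line 5637, which is labelled wild type and was grown in RPMI 1640 with fetal bovine serum. The siCDCA3-1 and siCDCA3-2 libraries came from cells transfected with siRNA against CDCA3, a cell division cycle gene, and the siNC library came from cells transfected with a control siRNA. Lipofectamine 3000 carried the siRNA in all 3 cultures, ribosomal RNA was then removed from total RNA, and no step selected polyadenylated RNA. The design text states that the knockdown was made to find genes downstream of CDCA3. It is not stated if siCDCA3-1 and siCDCA3-2 used separate siRNA sequences or were separate cultures, so the p-values below measure only the spread between these libraries, which may be technical.

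Histones are the proteins that package DNA: H2A, H2B, H3 and H4 form the nucleosome core, and H1 binds the linker DNA between cores. The replication-dependent genes are short, mostly lack introns, lie in clusters and are transcribed strongly in S phase, when new DNA needs new histones. Their mRNAs are the best known animal mRNAs without a poly(A) tail. They end in a conserved stem-loop that is bound by SLBP, and U7 snRNP directs the cut after it. Several of these genes, among them HIST1H1C, HIST1H2BD, HIST1H2BK, HIST1H2AC and HIST2H2BE, are also known to give polyadenylated mRNA, mainly outside S phase. The replication-independent histones, such as H3F3A, H2AFZ and H1F0, are in general polyadenylated and made throughout the cell cycle. The list used below under that name also holds H2AFX and CENPA, for which this description does not hold in full.

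The stem-loop is shown because it is the element that sets these mRNAs apart from others. A 16-base pattern (GGC, any base, CTT, any base, T, any base, AG, any base, GCC) was searched on the sense strand of GENCODE v29 transcripts; the pattern was narrowed after a looser one had matched inside a coding stretch. It was found in 32 of the 70 members and in 0.203% of 19669 protein-coding genes, 8 of which were not members. In all, 6 distinct stem-loops occurred, and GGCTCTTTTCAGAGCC was shared by 17 genes. Both H4 stem-loops below begin with GGCC, and those of the H2A, H2B and H3 genes below begin with GGCT. In each line the stem-loop is in capitals, with the flanking bases in lower case and T written for U.
HIST1H2AC: ccaaaGGCTCTTTTCAGAGCCcccct
HIST1H2AG: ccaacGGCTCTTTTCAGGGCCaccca
HIST2H2BE: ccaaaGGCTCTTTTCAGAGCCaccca
HIST1H2BG: tcaaaGGCTCTTTTCAGAGCCactca
HIST1H2BD: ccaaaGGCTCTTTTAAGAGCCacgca
HIST1H3H: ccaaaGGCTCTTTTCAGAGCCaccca
HIST1H3E: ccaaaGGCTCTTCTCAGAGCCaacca
HIST1H4H: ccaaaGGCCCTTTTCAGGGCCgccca
HIST1H4I: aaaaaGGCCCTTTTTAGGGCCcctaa
No match was found for HIST1H1C, HIST1H2BK and HIST1H4C, among others. Many annotated histone transcripts stop before this position and the pattern is narrow, so the absence of a match says nothing about a gene.

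Promoters were read from RefSeq on GRCh38.p14, where 65 of the 70 members matched. The 250 bases before each start were searched on both strands for 4 motifs. The letters CCAAT were found in 55 of 65 members and in 33.04% of 27305 promoters, and TATAAA in 43 of 65 members and in 11.1% of promoters. The octamer ATTTGCAT, which POU2F1 (OCT1) is known to bind in H2B promoters, occurred in 14 of 18 H2B, 11 of 16 H2A and 1 of 12 H3 promoters, in no H1 or H4 promoter, and in 1.66% of all promoters. The letters AAACACA, a known H1 element, occurred in 6 of 6 H1 promoters, in no other member, and in 4.95% of all promoters. CCAAT was in every matched H1, H2A, H2B and H3 promoter but in 3 of 13 H4 promoters. The 11 pairs of H2A and H2B genes described below have starts 194 to 248 bases apart. Their windows thus overlap, and 1 match can count for both genes. The windows of HIST1H3D and HIST1H2BF, with starts 223 bases apart, overlap likewise. The 4 promoters below belong to the most abundant H2B, HIST1H2BK (chr6:27146859-27147108, minus strand), to HIST1H2BD (chr6:26157871-26158120, plus strand), to the most abundant H1, HIST1H1C (chr6:26056471-26056720, minus strand), and to HIST1H4I (chr6:27139032-27139281, plus strand), the member with the largest ratios to siNC in both siCDCA3 libraries among the 27 with a mean count of at least 20. Each runs to the base before the start, and motif matches on either strand are in capitals.
HIST1H2BK: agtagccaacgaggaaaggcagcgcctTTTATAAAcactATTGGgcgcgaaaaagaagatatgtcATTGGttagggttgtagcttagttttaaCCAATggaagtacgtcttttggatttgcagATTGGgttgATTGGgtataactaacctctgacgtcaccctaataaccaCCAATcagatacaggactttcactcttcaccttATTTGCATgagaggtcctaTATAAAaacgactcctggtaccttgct
HIST1H2BD: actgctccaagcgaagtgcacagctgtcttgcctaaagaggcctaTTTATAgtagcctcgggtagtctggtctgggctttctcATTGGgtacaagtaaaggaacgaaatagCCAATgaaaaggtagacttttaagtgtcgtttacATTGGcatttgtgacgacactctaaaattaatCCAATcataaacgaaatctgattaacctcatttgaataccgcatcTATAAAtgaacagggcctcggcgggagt
HIST1H1C: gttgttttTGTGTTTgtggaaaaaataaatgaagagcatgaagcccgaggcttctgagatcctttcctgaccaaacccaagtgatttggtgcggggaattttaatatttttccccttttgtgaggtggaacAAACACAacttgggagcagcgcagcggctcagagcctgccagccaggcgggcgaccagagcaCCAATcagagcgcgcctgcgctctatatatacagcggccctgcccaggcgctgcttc
HIST1H4I: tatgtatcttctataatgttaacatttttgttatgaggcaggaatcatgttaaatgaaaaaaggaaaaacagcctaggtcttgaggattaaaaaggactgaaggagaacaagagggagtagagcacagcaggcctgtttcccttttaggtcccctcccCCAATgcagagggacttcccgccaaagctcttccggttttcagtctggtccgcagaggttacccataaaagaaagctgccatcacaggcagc
In the HIST1H2BK promoter the octamer begins 46 bases and the nearest TATAAA 27 bases before the start. A second TATAAA, 221 bases before the start, overlaps a TTTATA that begins 223 bases before it. This window reaches the span of HIST1H2AH (chr6:27147106-27147562), so the far matches are not assigned to either gene. The HIST1H2BD promoter has TATAAA 28 bases before the start and no octamer in this window. HIST1H1C has AAACACA 119 bases and CCAAT 57 bases before the start, and HIST1H4I has only CCAAT, 92 bases before it. These matches are letters in a window and were not tested as binding sites.

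RPKM, the read count scaled by transcript length and library total, was low for nearly all members. How well mRNA without a poly(A) tail was recovered was not measured, so a low value need not mean little mRNA in the cells. Of the 68 members with any count, 11 (16.2%) averaged 1 RPKM or more across the libraries, against 54.1% of all genes with a count. A mean count of at least 20 was reached by 27 members (39.7% of 68), against 70.8% of all genes. The other 43 members had mean RPKM of at most 0.400, and 2 of them, HIST1H2BA and HIST1H3C, had no count in any library. These 2 are named because they were the members at 0; no count allows at most 3 counts per library. Gene-level totals were 40420563, 62389922 and 50912733 counts in siCDCA3-1, siCDCA3-2 and siNC, and the members took 0.0150%, 0.00803% and 0.00850% of them. No count was recorded for 9 members in siCDCA3-1, 5 in siCDCA3-2 and 11 in siNC.

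Near-identical copies make some values uncertain. At least 1 stretch of 150 bases was shared with another member by 11 members, and over 50% of such stretches by 9. HIST2H2AA3 and HIST2H2AA4, HIST2H4A and HIST2H4B, HIST2H3A and HIST2H3C, HIST1H4J and HIST1H4K, and HIST1H2AI and HIST1H2AJ are such pairs, and the sources used here do not say how the counting split their reads, nor whether it used strand. The RefSeq span of HIST1H4I (chr6:27139282-27139678) lies inside that of HIST1H2BK (chr6:27138293-27146858) on the other strand, and 7 of the 27 members with a mean count of at least 20 overlap another gene's span.

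The targeted gene CDCA3 had 0.574 RPKM in siCDCA3-1 and 1.40 in siCDCA3-2, against 5.52 in siNC. All 8 epithelial and urothelial markers listed averaged 1 RPKM or more, with KRT19 at 822, 643 and 972 RPKM in siCDCA3-1, siCDCA3-2 and siNC. Summed over 4 markers each, leukocyte genes stood at 0.760, 0.408 and 0.535 RPKM and endothelial genes at 0.104, 0.0700 and 0.0337 RPKM in the same order. PTPRC was at 0 in siCDCA3-1, CD3E and CDH5 at 0 in siNC, and PECAM1 at 0 in siCDCA3-2. The 4 fibroblast markers summed to 9.87, 2.28 and 7.10 RPKM, mostly COL1A1, and LUM had 1.47, 0.00294 and 0.123 RPKM.

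Summed over the 70 members, histone cluster RNA reached 83.7 RPKM in siCDCA3-1 and 47.7 RPKM in siCDCA3-2, against 52.5 RPKM in siNC. The siCDCA3-1 library stood above the control and the siCDCA3-2 library slightly below it. The ratios to siNC were 1.60 (95% counting interval 1.53 to 1.66) and 0.910 (0.871 to 0.950). These intervals cover counting error only, and with a single siNC library there is no replicate error for the control. Of all members, HIST1H1C had the largest drop in RPKM from siNC to siCDCA3-2. That gene had 5.24 RPKM in siCDCA3-2 against 10.5 in siNC, a larger gap than that of the whole sum. The H2A, H3 and H4 sums were also below siNC there, with ratios of 0.882, 0.818 and 0.756, H3 within counting error of 1 (0.659 to 1.01). The H2B sum was above siNC (1.28). In bulk RNA, fewer cells in S phase and less histone mRNA per cell cannot be told apart.

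In sum the siCDCA3 libraries thus stood on opposite sides of siNC, and the test of siCDCA3 against siNC called no member. In edgeR's quasi-likelihood test over the 10153 genes that averaged 1 RPKM or more, 3 genes passed an adjusted p of 0.05 (0.0295% of those tested) and none of the 11 members did. At an unadjusted p under 0.05 edgeR had 134 genes (1.32%) and no member. DESeq2 called 10 genes (0.0985%) and limma called 0, with no member among them and none under 0.05 unadjusted. Among all 13282 genes with a mean count of at least 20, edgeR called 4 (0.0301%; 202 or 1.52% unadjusted) and none of 27 members at either level. Among all 18761 genes with a count it called 22 (0.117%; 334 or 1.78% unadjusted) and none of 68 members. On the longest transcripts it called 3 genes (0.0297%) and no member. The fit has 1 residual degree of freedom, between siCDCA3-1 and siCDCA3-2, and takes the spread of siNC to be the same as theirs. The targeted CDCA3, with an edgeR log2 fold change of -2.50, was not called by edgeR or DESeq2 either. A missing call thus says little about whether a member changed. The values below are therefore given as levels in these libraries.

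By role, H2B was the only family whose summed RPKM was above siNC in both siCDCA3 libraries. H2B summed to 37.3 RPKM in siCDCA3-1 and 22.8 in siCDCA3-2, against 17.9 in siNC, ratios of 2.09 (1.97 to 2.23) and 1.28 (1.197 to 1.36). H1 summed to 18.9 and 5.60 RPKM, against 11.2 in siNC, ratios of 1.69 (1.56 to 1.82) and 0.498 (0.452 to 0.549). H1 thus had the widest split between the siCDCA3 libraries, and HIST1H1C alone made up 93.3% of the siNC sum. H2A summed to 14.1 and 10.7 RPKM, against 12.1 in siNC. H3 summed to 4.05 and 2.03 RPKM, against 2.48 in siNC. H4 summed to 9.33 and 6.65 RPKM, against 8.79 in siNC. In all 5 families siCDCA3-1 had the highest sum of the 3 libraries. For H4 its ratio to siNC of 1.06 (0.925 to 1.22) was within counting error of 1.

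**Figure D1:**
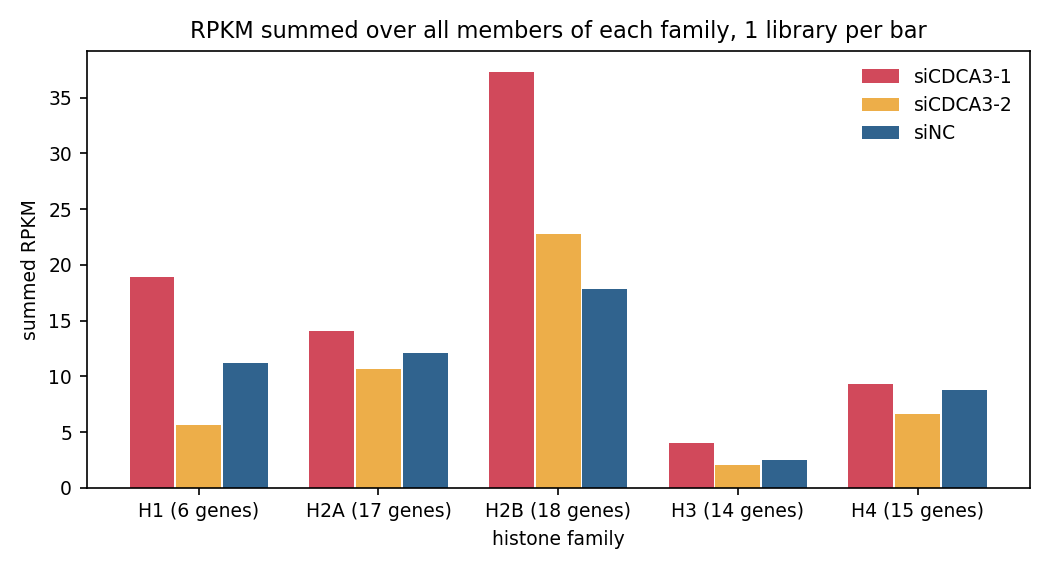
Summed RPKM of the members of each histone family (vertical axis) in siCDCA3-1, siCDCA3-2 and siNC, 1 library per bar and no error bars because each bar is a single library. H2B stands at 37.3 and 22.8 RPKM in the siCDCA3 libraries and 17.9 in siNC, while the H1 bar of siCDCA3-2 (5.60) is below that of siNC (11.2).

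The medians over members tell how far the sums rest on single genes. Among members with a mean count of at least 20, the median ratio to siNC was 1.38 in siCDCA3-1 and 0.892 in siCDCA3-2, against 0.951 and 1.05 over all 13282 such genes. For the 10 H2B genes the medians were 1.62 and 1.33, and for the 7 H2A genes 0.729 and 0.793. The 5 H4 genes had 1.06 and 0.812, the 3 H3 genes 1.46 and 0.305, and the 2 H1 genes 1.38 and 0.514. In siCDCA3-1 the H2A sum was above siNC (ratio 1.16) while its median ratio was below 1, so sum and median differ in direction there.

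In siCDCA3-1, 19 of the 27 members stood above siNC, where 43.2% of all genes did, and 8 below it, where 56.8% did. A ratio of 2 or more in siCDCA3-1 was found for 7 members and 3.85% of all genes, and 1 member was at 1/2 of siNC or less in siCDCA3-1, where 5.35% of genes were. In siCDCA3-2, 12 members stood above siNC (55.1% of all genes) and 15 below it (44.9%), 1 was at least 2-fold above (6.69%) and 5 were at 1/2 or less (7.36%). Both comparisons use the same siNC library, so a low or high value there moves both. In both siCDCA3 libraries, 10 members were above siNC (25.5% of all genes), 6 were below (27.1%) and 11 were on opposite sides (47.4%). Of the 27, HIST1H4I was the only member at least 2-fold above in both (1.3% of genes), and none was at 1/2 or less in both (1.48%). On log2(RPKM + 1), a scale that understates the change of low genes, 2 of 11 members were at least 1 above siNC in siCDCA3-1 (0.847% of genes), 0 were in siCDCA3-2 (1.42%) and 0 in both (0.0985%). None was at least 1 below siNC on that scale in siCDCA3-1 (1.74%) or in siCDCA3-2 (3.27%).

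**Figure D2:**
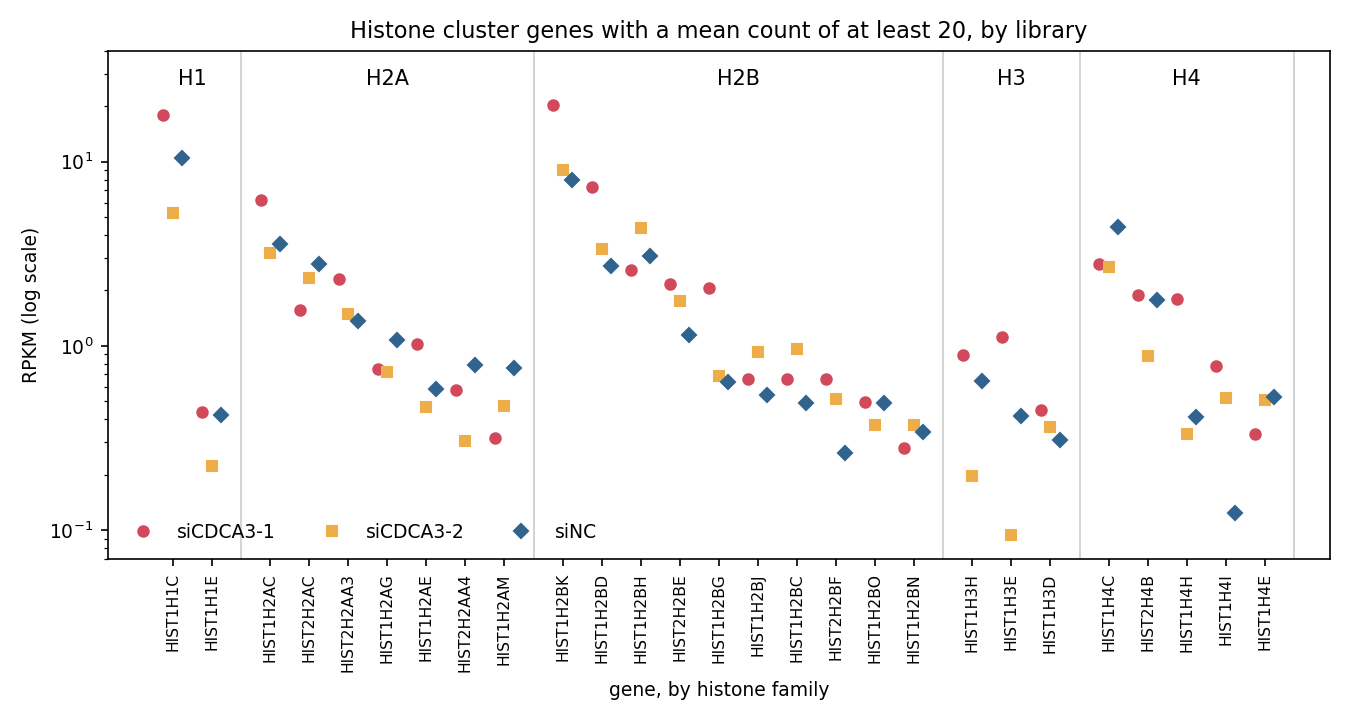
RPKM on a log axis of the 27 members with a mean count of at least 20, grouped by histone family, with 1 point for each of siCDCA3-1, siCDCA3-2 and siNC. HIST1H2BK (20.2, 9.02 and 7.94 RPKM) and HIST1H1C (18.0, 5.24 and 10.5 RPKM) are the most abundant, and HIST1H3E (1.12, 0.0943 and 0.415 RPKM) has the widest gap between the siCDCA3 libraries.

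HIST1H2BK, which encodes an H2B of the nucleosome core, was the most abundant member. It had 20.2 RPKM in siCDCA3-1 and 9.02 in siCDCA3-2, against 7.94 in siNC, from 1768, 1216 and 869 counts. Both siCDCA3 libraries were above siNC, siCDCA3-2 only slightly. The ratios were 2.55 (2.35 to 2.77) and 1.14 (1.04 to 1.24), and edgeR gave a log2 fold change of 0.92 ± 0.65 (SE; adjusted p = 1.00). HIST1H2BD (chr6:26158121-26171349), another core H2B, had 7.30 and 3.37 RPKM in siCDCA3-1 and siCDCA3-2, against 2.73 in siNC. Its order was the same, with ratios of 2.67 (2.32 to 3.08) and 1.23 (1.06 to 1.44) and an edgeR log2 fold change of 1.00 ± 0.75 (SE; adjusted p = 1.00). HIST2H2BE (chr1:149884459-149886682), an H2B gene in the chromosome 1 cluster, had 2.16 and 1.75 RPKM, against 1.14 in siNC. Here the siCDCA3 libraries lay closer together, with ratios of 1.89 (1.64 to 2.18) and 1.54 (1.34 to 1.76) and an edgeR log2 fold change of 0.79 ± 0.68 (SE; adjusted p = 1.00).

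The other H2B genes were less abundant. HIST1H2BG had 2.05 RPKM in siCDCA3-1 and 0.685 in siCDCA3-2, against 0.637 in siNC. Only siCDCA3-1 stood apart from the control, with a ratio of 3.22 (2.18 to 4.84) where siCDCA3-2 had 1.08 (0.688 to 1.70). HIST2H2BF had 0.659 and 0.516 RPKM, against 0.263 in siNC, from 34, 41 and 17 counts. Its ratios of 2.51 (1.36 to 4.78) and 1.96 (1.09 to 3.68) both had intervals above 1. HIST1H2BC had 0.658 and 0.966 RPKM, against 0.490 in siNC, and its siCDCA3-1 ratio of 1.34 (0.775 to 2.33) was within counting error of 1. HIST1H2BH ran the other way in siCDCA3-1, with 2.58 and 4.36 RPKM against 3.08 in siNC. In all, 7 of 10 H2B genes with a mean count of at least 20 were above siNC in both siCDCA3 libraries (25.5% of all genes). None was below in both (27.1%). Some of the 7, such as HIST1H2BG and HIST1H2BC, were within counting error of siNC in 1 library.

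HIST1H2BD, HIST1H2BK and HIST2H2BF were listed with 2 transcripts each, which share reads. For HIST1H2BK the 839-base transcript used above had ratios of 2.55 and 1.14, and the 498-base transcript, at 19.95 and 8.38 RPKM against 8.42 in siNC, had 2.37 (2.13 to 2.63) and 0.995 (0.887 to 1.12). The siCDCA3-2 value of HIST1H2BK was thus above siNC on the longer transcript and level with it on the shorter. For HIST1H2BD the 487-base transcript had 7.12 and 3.86 RPKM against 3.49 in siNC, ratios of 2.04 and 1.10, where the 814-base transcript had 2.67 and 1.23. For HIST2H2BF the 999-base transcript had 0.298 and 0.231 RPKM against 0.115 in siNC, ratios of 2.59 and 2.00.

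The core histone genes were also split by the length of the counted transcript, at 600 bases, a split chosen after these values were seen and therefore only a description. The 4 members with a counted transcript over 600 bases were HIST1H2BK, HIST1H2BD, HIST2H2BE and HIST1H3D. All 4 were above siNC in both siCDCA3 libraries, but HIST1H3D was within counting error of it, with ratios of 1.46 (0.916 to 2.32) and 1.19 (0.766 to 1.85). Together the 4 had 30.1 and 14.5 RPKM against 12.1 in siNC, ratios of 2.49 (2.33 to 2.65) and 1.197 (1.12 to 1.28). HIST1H2BK and HIST1H2BD fell in this group only through the transcript counted, since each also has one under 600 bases (498 and 487). The 60 core members with a counted transcript of up to 600 bases, the usual length of a stem-loop histone mRNA, had 34.6 and 27.6 RPKM against 29.1 in siNC. Their ratios were 1.19 (1.11 to 1.27) and 0.949 (0.890 to 1.01), and 6 of 21 with a mean count of at least 20 were above in both and 6 below in both. The table does not show whether a read came from a polyadenylated or a stem-loop mRNA.

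HIST1H1C (chr6:26055740-26056470) encodes linker histone H1.2. It had 18.0 RPKM in siCDCA3-1 and 5.24 in siCDCA3-2, against 10.5 in siNC, from 1371, 616 and 1001 counts. The siCDCA3 libraries lay on either side of the control, 3.43-fold apart (3.12 to 3.78). The ratios to siNC were 1.72 (1.58 to 1.86) and 0.4998 (0.451 to 0.553), and the edgeR log2 fold change was 0.20 ± 0.73 (SE; adjusted p = 1.00).

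Among H2A genes the direction varied by gene. HIST1H2AC, the most abundant, had 6.21 RPKM in siCDCA3-1 and 3.19 in siCDCA3-2, against 3.58 in siNC. Only siCDCA3-1 stood apart, with a ratio of 1.73 (1.47 to 2.05) where siCDCA3-2 had 0.892 (0.750 to 1.06). HIST2H2AC, in the chromosome 1 cluster, had 1.56 and 2.35 RPKM against 2.79 in siNC, ratios of 0.559 (0.417 to 0.744) and 0.843 (0.674 to 1.05). HIST1H2AG had 0.752 and 0.725 RPKM against 1.08 in siNC, and HIST1H2AM had 0.315 and 0.473 RPKM against 0.756 in siNC. Both were below siNC in the 2 siCDCA3 libraries, HIST1H2AG within counting error of it in siCDCA3-1 (ratio 0.698, 0.459 to 1.05). The near-identical HIST2H2AA3 (2.30, 1.49 and 1.36 RPKM in siCDCA3-1, siCDCA3-2 and siNC) and HIST2H2AA4 (0.575, 0.303 and 0.789 RPKM) differed in direction, and their split is uncertain.

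The H3 genes were low, and none reached a mean RPKM of 1. HIST1H3H, the most abundant of them, had 0.893 RPKM in siCDCA3-1 and 0.197 in siCDCA3-2, against 0.648 in siNC. HIST1H3E had 1.12 and 0.0943 RPKM against 0.415 in siNC, from 54, 7 and 25 counts. Both genes were highest in siCDCA3-1 and lowest in siCDCA3-2, and the siCDCA3-1 over siCDCA3-2 ratios of 4.52 (2.47 to 8.75) and 11.9 (5.40 to 30.995) were above counting error. The stem-loop of HIST1H3E, printed above, occurred in no other of the 32 members with a match.

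HIST1H4C (chr6:26103933-26104337) was the most abundant H4 gene. It had 2.78 RPKM in siCDCA3-1 and 2.70 in siCDCA3-2, against 4.40 in siNC, from 113, 169 and 224 counts. The siCDCA3 libraries agreed within counting error and both lay below the control. The ratios were 0.632 (0.499 to 0.796) and 0.613 (0.499 to 0.752), and the edgeR log2 fold change was -0.67 ± 0.72 (SE; adjusted p = 1.00). HIST1H4I went the opposite way, with 0.778 and 0.522 RPKM against 0.124 in siNC, from 30, 31 and only 6 counts. Its ratios of 6.26 (2.56 to 18.4) and 4.20 (1.72 to 12.3) are wide because of the 6 siNC counts, and edgeR on genes with a mean count of at least 20 gave a log2 fold change of 2.37 ± 1.27 (SE; adjusted p = 1.00). HIST1H4H had 1.80 and 0.333 RPKM against 0.410 in siNC, 5.40-fold apart between the siCDCA3 libraries (3.25 to 9.37). HIST2H4B, whose reads HIST2H4A can share, had 1.89 and 0.880 RPKM against 1.78 in siNC.

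**Figure D3:**
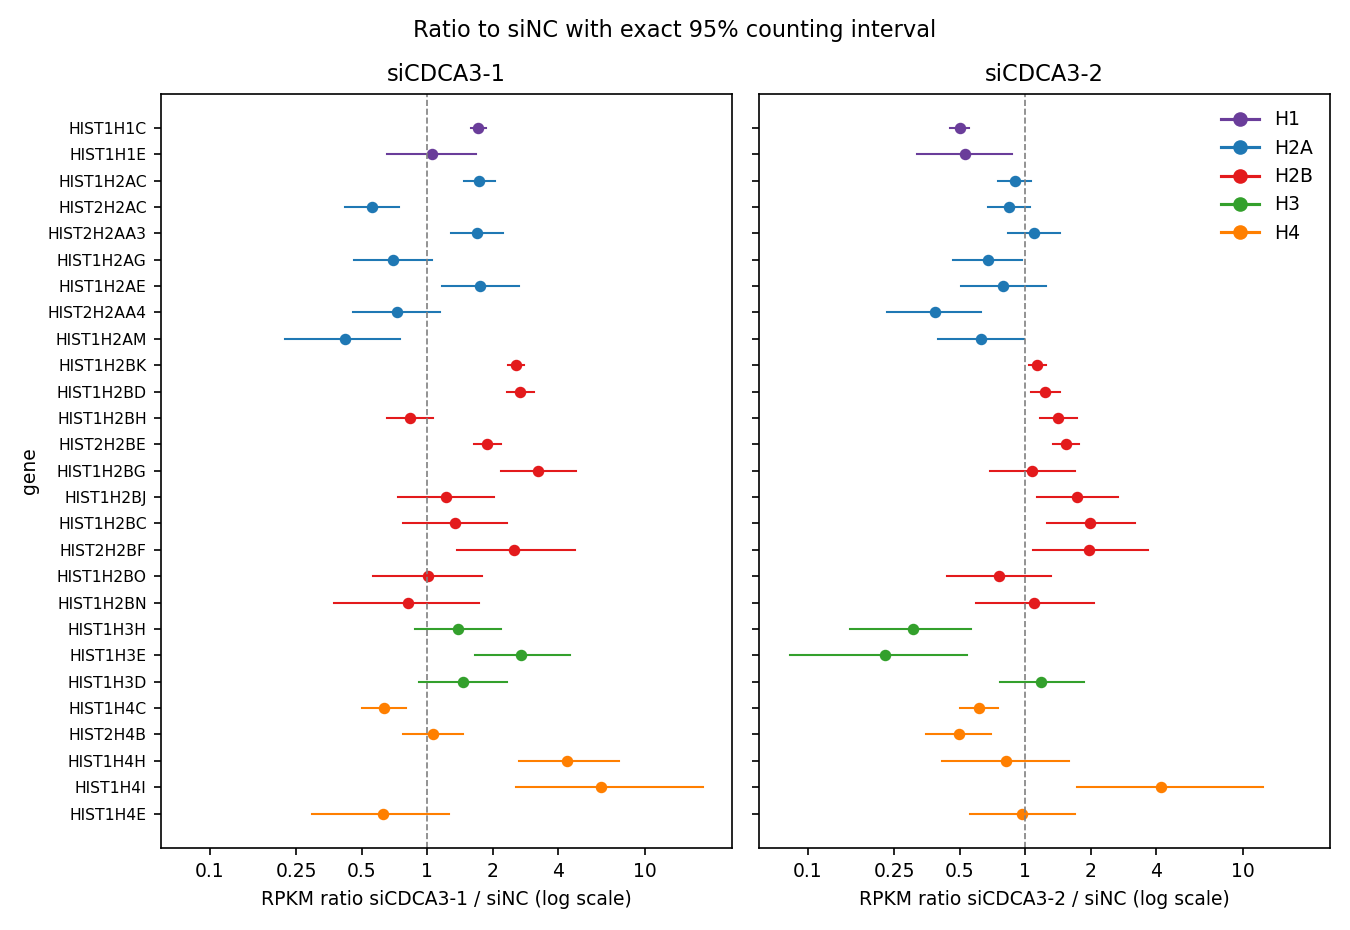
RPKM ratio to siNC on a log axis for the 27 members with a mean count of at least 20, in siCDCA3-1 (left) and siCDCA3-2 (right), with exact 95% counting intervals and colours for the families. HIST1H4I lies at 6.26 and 4.20, HIST1H4C at 0.632 and 0.613, and HIST1H3E at 2.71 and 0.227.

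The siCDCA3 libraries were also set against each other, without siNC. Of the 27 members, 20 were higher in siCDCA3-1 than in siCDCA3-2, where 42.3% of all genes were. In siCDCA3-1, 9 were at least 2-fold higher than in siCDCA3-2 (8.37% of genes) and none was at least 2-fold lower (12.5% of genes). The median ratio of siCDCA3-1 to siCDCA3-2 was 1.49 over these members and 0.912 over all 13282 genes. It was 4.52 for H3, 2.71 for H1, 1.54 for H2A, 1.49 for H4 and 1.25 for H2B. The 5 members farthest apart were HIST1H3E, HIST1H4H, HIST1H3H, HIST1H1C and HIST1H2BG, each higher in siCDCA3-1. CDCA3 itself and the fibroblast markers COL1A1 (8.33, 2.26 and 6.96 RPKM in siCDCA3-1, siCDCA3-2 and siNC) and LUM also differed between these libraries, and their part in the result was not tested.

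Many H2A and H2B genes are transcribed away from each other from a shared promoter region. Among the 65 members with a matched promoter, 11 such pairs had starts 194 to 248 bases apart. HIST1H2AH (chr6:27147106-27147562), which lies next to HIST1H2BK, had no matched promoter, so these genes were not assessed as a pair. In 5 of the 11 pairs both genes had a mean count of at least 20. In those 5 pairs, the partners were on the same side of siNC in 2 pairs in siCDCA3-1 and in 1 pair in siCDCA3-2; in the other 6 pairs at least 1 partner was under that count. HIST2H2AC and HIST2H2BE, whose starts lie 236 bases apart, stood on opposite sides in both siCDCA3 libraries, with the levels given above. HIST1H2AG and its partner HIST1H2BJ did so too, HIST1H2BJ having 0.659 and 0.932 RPKM against 0.542 in siNC. In siCDCA3-1 both were within counting error of siNC, with ratios of 0.698 (0.459 to 1.05) and 1.22 (0.730 to 2.02). HIST1H2AE and HIST1H2BG were both above siNC in siCDCA3-1, HIST1H2AE having 1.02 and 0.464 RPKM against 0.584 in siNC. HIST1H2AE and HIST1H2BJ are named as partners in these pairs, after their values were seen.

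**Figure D4:**
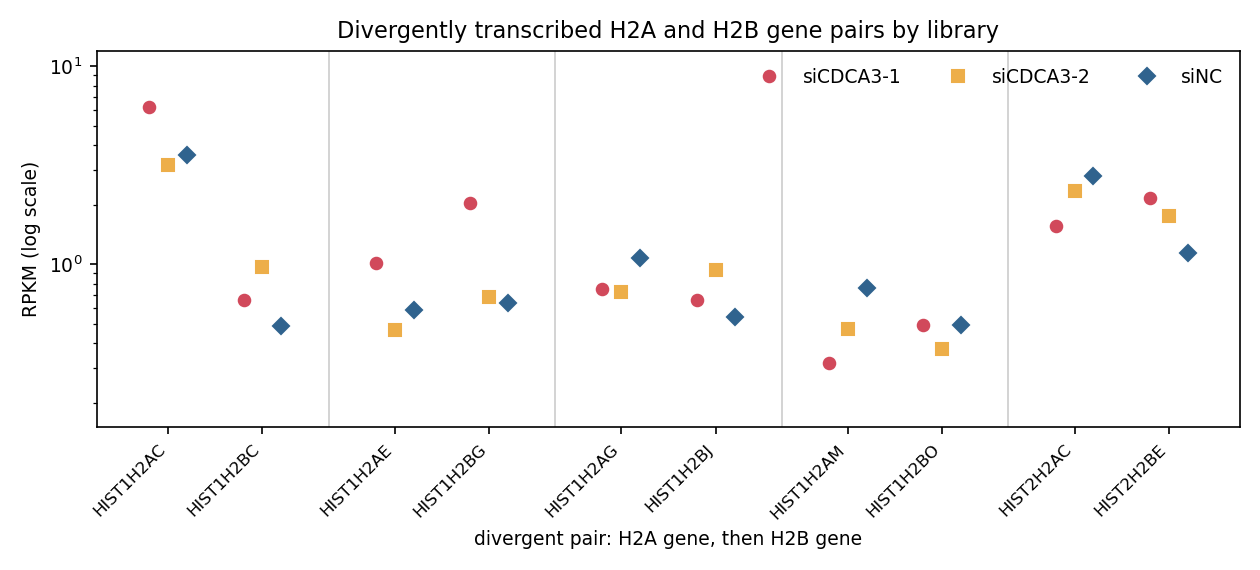
RPKM on a log axis of the 5 divergent H2A and H2B gene pairs with a mean count of at least 20 for both genes, with 1 point for each of siCDCA3-1, siCDCA3-2 and siNC. HIST2H2AC lies below siNC in both siCDCA3 libraries (1.56 and 2.35 against 2.79 RPKM) while its partner HIST2H2BE lies above it (2.16 and 1.75 against 1.14 RPKM).

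By position, the 34 members at chr6:25726063-26285534 summed to 47.4 RPKM in siCDCA3-1 and 24.3 in siCDCA3-2, against 29.8 in siNC, ratios of 1.59 and 0.813. The 5 members at chr6:27132316-27147562, which include HIST1H2BK, summed to 22.6 and 11.4 RPKM against 9.78 in siNC, ratios of 2.31 and 1.17. The 16 members at chr6:27807479-27893891 had nearly equal sums, 3.67 and 3.44 RPKM against 3.64 in siNC. The 11 members at chr1:149782689-149887965 summed to 9.81 and 8.15 RPKM against 8.90 in siNC. The 3 members at chr1:228424845-228458558 had only 10, 9 and 1 counts in siCDCA3-1, siCDCA3-2 and siNC. HIST4H4 on chromosome 12, the only member of that cluster, had 0.0466 and 0.332 RPKM against 0.298 in siNC. Groups were set by gaps of over 500000 bases between neighbouring starts, and HIST1H2BK and HIST1H1C lead the sums of their groups.

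Genes that make or process histone mRNA were measured beside the members, from a list of 16. In edgeR's fit over all genes none of the 15 tested was called. Of these, 5 were above siNC in both siCDCA3 libraries (25.5% of all genes), 3 below in both (27.1%) and 7 on opposite sides (47.4%). The median ratios were 0.894 and 1.21. The shares are over genes with a mean count of at least 20, where the list counts use a mean RPKM of at least 1. SLBP, which binds the stem-loop, had 7.15 RPKM in siCDCA3-1 and 11.7 in siCDCA3-2, against 10.6 in siNC. SLBP was lowest in siCDCA3-1, the library with the highest histone sum. NPAT, the coactivator of histone gene transcription, had 1.05 and 1.96 RPKM against 1.00 in siNC. SRRT (ARS2), which works with the cap-binding complex in histone mRNA processing, had 30.7 and 37.2 RPKM against 20.4 in siNC. LSM11, a U7 snRNP protein, was below the mean RPKM of 1 and was not tested, at 0.569 and 1.36 RPKM against 0.643 in siNC.

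The 6 S-phase drivers gave 0 calls in edgeR. Of them, 3 were above siNC in both siCDCA3 libraries (25.5% of all genes with a mean count of at least 20). The other 3 were on opposite sides (47.4%), and the median ratios were 0.954 and 1.89. CCNE2 (cyclin E2, an activator of CDK2) had 3.90 and 16.3 RPKM in siCDCA3-1 and siCDCA3-2, against 6.50 in siNC. CCNA2 (cyclin A2) had 8.39 and 19.8 RPKM against 9.99 in siNC, and CDC25A, the phosphatase that activates CDK2, had 4.16 and 8.11 RPKM against 3.62 in siNC. These genes were highest in siCDCA3-2, the library in which the histone sum was lowest. HIST1H1C had the largest drop there (5.24 RPKM against 10.5 in siNC). The H2A, H3 and H4 sums were also below siNC in siCDCA3-2, while H2B summed to 22.8 RPKM against 17.9 in siNC. A link between the S-phase drivers and histone RNA was not tested.

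In RPKM the replication-independent histones stood far above the cluster genes, with sums of 514 in siCDCA3-1 and 747 in siCDCA3-2, against 765 in siNC. Reads of cluster genes with near-identical copies may be lost in counting. How well mRNA without a poly(A) tail was recovered was not measured. Of 12 genes 11 were tested and edgeR called none. Of the 11, 0 were above siNC in both siCDCA3 libraries (25.5% of all genes with a mean count of at least 20). Below in both were 5 (27.1%) and on opposite sides 6 (47.4%), with median ratios of 0.710 and 0.953. H1F0, the linker histone H1.0 of differentiated cells, had 12.5 and 7.48 RPKM against 38.3 in siNC, ratios of 0.327 and 0.195. Its edgeR log2 fold change was -1.91 ± 0.50 (SE; adjusted p = 1.00), and it was the only gene of this list under 0.05 unadjusted in edgeR. H1FX, another linker histone, had 56.5 and 54.0 RPKM against 112 in siNC. Both replication-independent linker histones were thus below siNC in both siCDCA3 libraries, where the cluster linker histone HIST1H1C was on opposite sides. H2AFX, whose phosphorylated form marks DNA breaks, had 28.4 and 78.4 RPKM against 46.1 in siNC, and H3F3A, which encodes H3.3, had 63.0 and 142 RPKM against 126 in siNC.

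**Figure D5:**
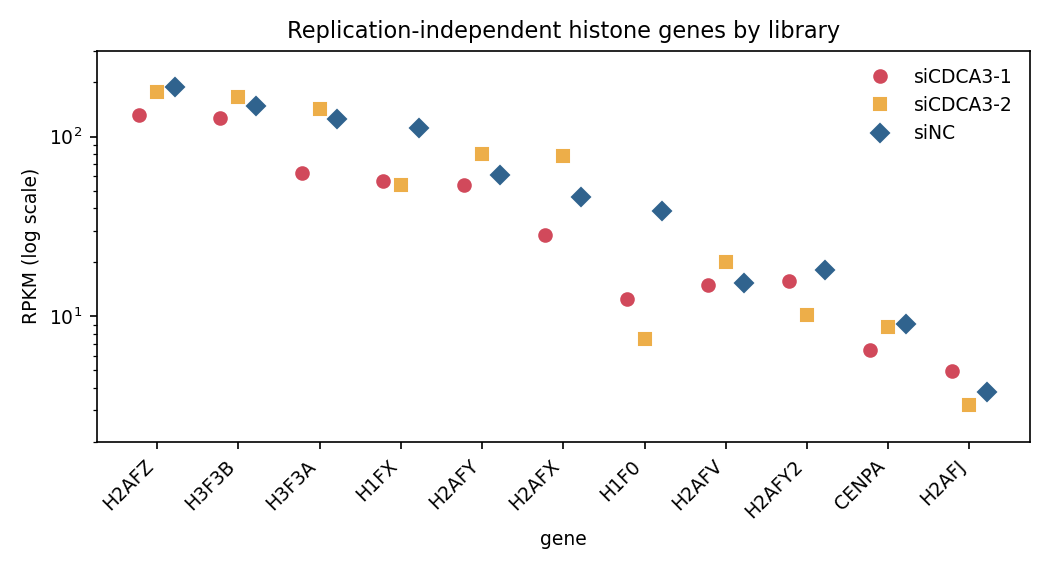
RPKM on a log axis of the 11 replication-independent histone genes that averaged 1 RPKM or more, with 1 point for each of siCDCA3-1, siCDCA3-2 and siNC. H1F0 (12.5 and 7.48 against 38.3 RPKM) and H1FX (56.5 and 54.0 against 112 RPKM) lie below siNC in both siCDCA3 libraries.

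Of 21 histone chaperones, which carry histones to and from DNA, edgeR called none. Above siNC in both siCDCA3 libraries were 6 (25.5% of all genes with a mean count of at least 20). Below in both were 4 (27.1%) and on opposite sides 11 (47.4%), with median ratios of 0.941 and 1.11. ANP32E, an H2A.Z chaperone, had 5.70 and 23.7 RPKM in siCDCA3-1 and siCDCA3-2, against 13.0 in siNC. CHAF1B, a subunit of the replication-coupled assembly factor CAF-1, had 15.1 and 13.8 RPKM against 21.7 in siNC.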

How the data were processed

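RNA-seq libraries of 5637 cells were compared as 2 siCDCA3 libraries and 1 siNC library. The deposited table held counts, whole numbers of reads for each RefSeq transcript. It also held RPKM, which the authors computed from that count, the transcript length and 1 total per library (104153360 in siCDCA3-1, 160640877 in siCDCA3-2 and 130459616 in siNC). Per the submitters' processing notes, Trimmomatic 0.36, FastQC, HISAT2 and HTSeq were used, and a human and a mouse build are listed with no role. Of the accessions, 98.6% matched RefSeq genes on GRCh38.p14, which supplied gene spans; the sources used here do not say which build the counting used. Reads of members with near-identical copies, and of overlapping genes, may be split or lost by such counting.

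Each gene was represented by its transcript with the most counts, ties broken by identifier, since transcripts share reads. The main test was edgeR 4.0.16 (R 4.3.3) (TMM scaling, quasi-likelihood, siCDCA3 against siNC, two-sided) with Benjamini-Hochberg adjustment over all genes averaging 1 RPKM or more; the threshold was 0.05. A standard error is the size of the log2 fold change divided by the square root of F. DESeq2 1.42.0, limma 3.58.1, other filters, scalings, pseudocounts and transcripts, and each siCDCA3 library left out, were alternatives. The script was tested on simulated data. Intervals for single genes are exact 95% binomial intervals and those for sums use the Poisson variance of the counts; PCR reads are not independent molecules, so both cover counting error only.

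Named members were those with a mean RPKM of at least 1, the highest of each family, and, at a mean count of at least 20, the 5 with the largest and smallest ratios to siNC in the less changed siCDCA3 library and the 5 farthest apart between the siCDCA3 libraries. Members, lists and tests were chosen with earlier results of these data known.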

Additional observations from a re-analysis of the deposited data

How the results depend on the processing

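No histone member was called by edgeR's quasi-likelihood test, with RLE factors, no filter, a mean count of at least 20, a mean RPKM of at least 5 or the longest transcript, nor by DESeq2 or limma, and none was under 0.05 unadjusted. The 3 genes called in all became 22 with no filter, 0 at a mean RPKM of at least 5, 10 with DESeq2 and 0 with limma. No edgeR fit could be tested without a siCDCA3 library, since no residual degree of freedom remains. No paired analysis was possible because siNC is 1 library and shares no pair of replicate numbers with siCDCA3.

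The count of members at least 2-fold above siNC in both siCDCA3 libraries was 1, and became 2 with the longest transcript, 0 at a mean count of at least 50 and 10 with no filter; the count at 1/2 or less, 0, became 2 with no filter. The 10 members above in both became 5 at a mean count of at least 50 and 27 with no filter, and the 6 below in both became 3 and 15. With 1 siCDCA3 library left out, these counts ran over 1 to 7, 1 to 5, 12 to 19 and 8 to 15, and the count at least 1 above on log2(RPKM + 1) over 0 to 2. The higher ends for values above siNC came without siCDCA3-2 and for values below without siCDCA3-1.

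Family sums, as the mean of the siCDCA3 libraries over siNC, were 1.09 for H1, 1.02 for H2A, 1.68 for H2B, 1.23 for H3 and 0.909 for H4. Leaving out a siCDCA3 library gave 0.498 to 1.69, 0.882 to 1.16, 1.28 to 2.09, 0.818 to 1.63 and 0.756 to 1.06, so H2B alone kept its direction. Without its highest member H1 was 0.869, H2A 0.899, H2B 1.56 and H4 1.197; these turn the direction of H1, H2A and H4, and the cause was not tested. TMM scaling, the longest transcript and, chosen after seeing the data, leaving out members that share 150-base stretches moved no family past its spread. Of 20 named members all kept their log2 difference within the spread under TMM scaling, the longest transcript and a pseudocount of 0.5, and 19 under 0.1, HIST2H2BE being the exception. The difference of HIST1H3E was -0.08 at a pseudocount of 0.1 and 0.11 at 1. Leaving out siCDCA3-1 or siCDCA3-2 moved the same 5 members past the spread (HIST1H1C, HIST1H2AC, HIST1H2BD, HIST1H2BH and HIST1H2BK). The sign turned for 3 members without siCDCA3-1 (HIST1H2AC, HIST1H3E and HIST1H4H) and for 4 without siCDCA3-2 (HIST1H1C, HIST1H2BH, HIST1H3H and HIST2H4B). For HIST1H1C the mean log2(RPKM + 1) difference was -0.08 over both siCDCA3 libraries and 0.73 without siCDCA3-2. Its edgeR log2 fold change of 0.20 over both libraries had the opposite sign to that mean, so its combined direction depends on the measure. The 43 members under a mean count of 20 are too shallow for a direction.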
